A study of Homo sapiens with 6 samples.

Results

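Genes that mark the lineage of ovarian carcinoma were examined by RNA-seq in HEY, an established human ovarian cancer cell line. The set holds 10 genes chosen by name, PAX8, WT1, EMX2, MUC1, MUC16, MSLN, KRT7, KRT8, KRT18 and KRT19, and all 10 were found among the 32679 genes of the deposited table. The control group (shNC) has 3 samples with genotype NC and no treatment. The knockdown group (shPQBP1) has 3 samples with PQBP1 knocked down by a doxycycline-inducible hairpin and doxycycline at 1 µg/ml, and all 6 samples were collected at day 3. Hairpin and drug changed at once from shNC to shPQBP1, so the effect of either cannot be told apart from the other. The study describes lentivirus-infected lines selected with puromycin and biological triplicates, and it names no single-cell cloning. The comparison asks how the identity markers of these cells stand when PQBP1, a splicing factor of the precatalytic spliceosome, is depleted.

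PAX8, WT1 and EMX2 are transcription factors of the developing urogenital tract. PAX8 is kept in the fallopian tube epithelium and in most serous carcinomas, and WT1 is used with it to recognise serous tumours. MUC1 and MUC16 are large membrane mucins, and MUC16 carries the CA125 epitope measured in the serum of patients. MSLN (mesothelin) is a surface protein anchored by a lipid that binds MUC16. KRT7, KRT8, KRT18 and KRT19 are keratins of simple epithelia. Keratin filaments are built from pairs of a type II keratin (KRT7, KRT8) and a type I keratin (KRT18, KRT19).

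Values are FPKM, fragments per kilobase of transcript scaled to all mapped fragments of the sample, so levels can be set side by side between genes. Genes with a mean of at least 1 FPKM over the 6 samples were tested (11413 genes) with limma on log2(FPKM + 0.1), and adjusted p means Benjamini-Hochberg over all of these genes. Of the 10 markers, 6 were tested and 4 (WT1, EMX2, MUC1 and MUC16) lay under that level. The depth of the samples is unknown. The sample shNC 1 stood somewhat apart, with a correlation of 0.926 to 0.955 with the others against at least 0.956 among the rest. PQBP1 fell from 6.93 ± 0.255 FPKM to 1.61 ± 0.151 (SD, n = 3 each; log2 fold change -2.04, SE 0.10, limma adjusted p = 0.00154), in the direction of the labels.

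The markers were present very unequally. KRT18 had the highest mean level (85.5 FPKM), followed by KRT7 (61.7), KRT8 (59.4), MSLN (18.6), PAX8 (17.5), KRT19 (1.61), WT1 (0.52), MUC1 (0.0067) and MUC16 (0.0017), and EMX2 was listed at 0. KRT18 lay above 98.8% of all genes in the table, MSLN above 93.8% and PAX8 above 93.4%. KRT7 and KRT8 overlapped in level over the 6 samples, as did MSLN and PAX8. Within each sample, however, KRT7 exceeded KRT8 in all 3 shNC samples and was below it in all 3 shPQBP1 samples. Likewise, PAX8 exceeded MSLN in all 3 shNC samples and was below it in all 3 shPQBP1 samples. The plot of FPKM by sample shows this range, and the plot of ranks places each marker among all genes.

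**Figure D1:**
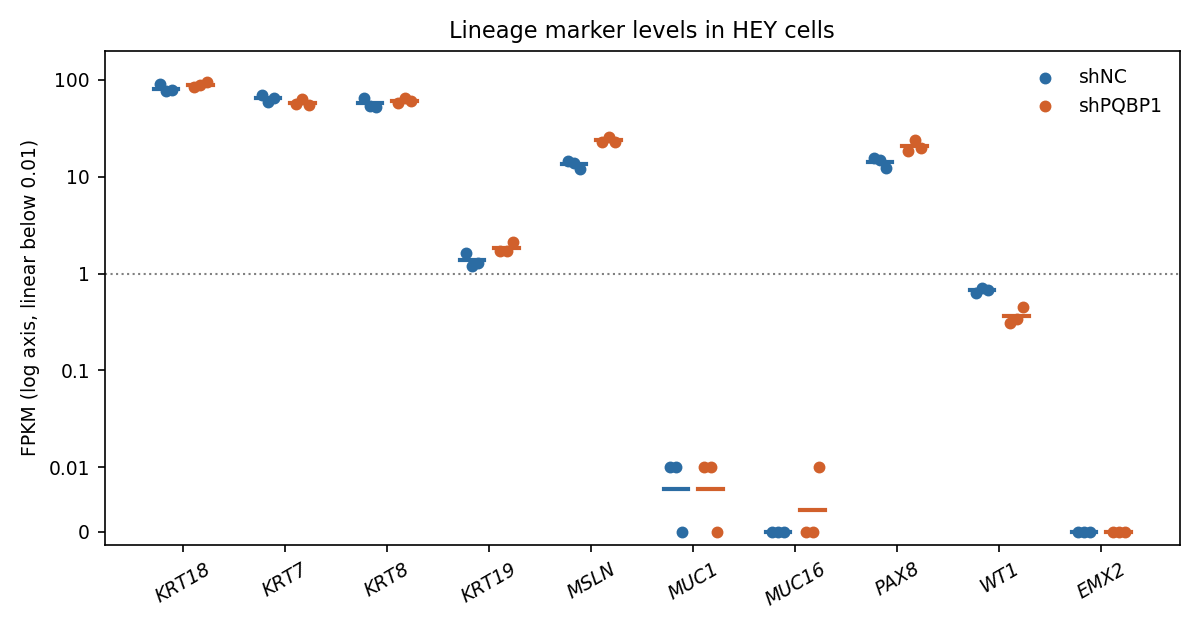
FPKM of the 10 markers in 3 shNC (blue) and 3 shPQBP1 (orange) samples on an axis that is logarithmic above 0.01 and linear below it. Each point is a sample, short lines are group means, and the dotted line at 1 FPKM marks the level needed for testing. MSLN, PAX8 and KRT19 are higher in every shPQBP1 sample than in any shNC sample, WT1 is lower, and EMX2, MUC1 and MUC16 sit at 0 or 0.01.

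**Figure D2:**
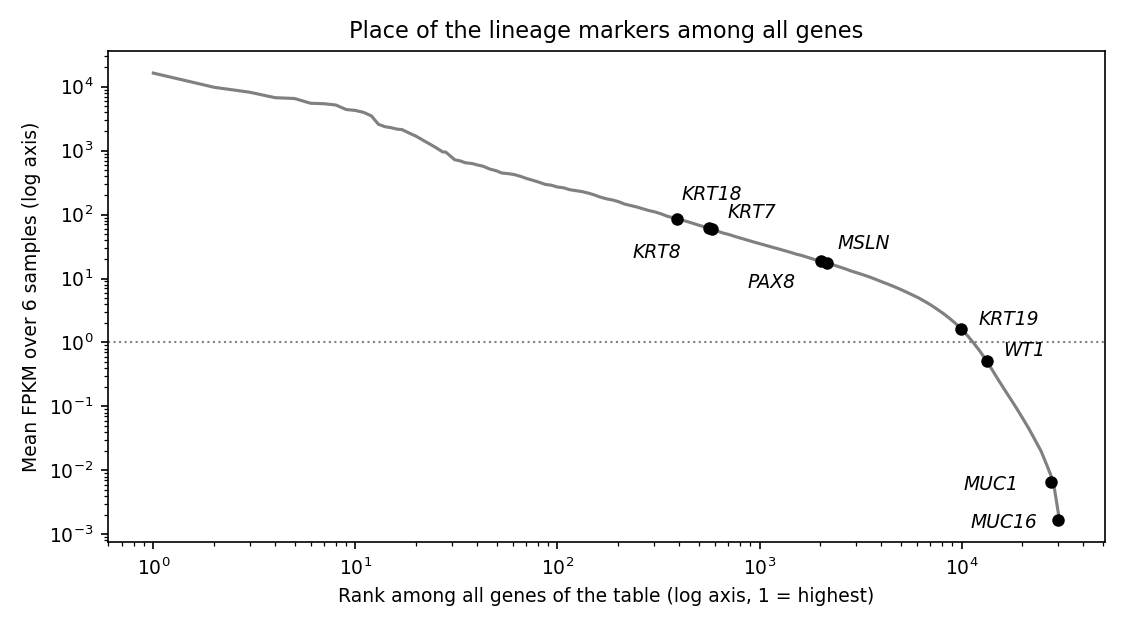
Mean FPKM over the 6 samples against rank among all 32679 genes, both on log axes, with genes listed at 0, EMX2 among them, left off. KRT18 is at rank 392, MSLN at 2015, PAX8 at 2155, KRT19 at 9968, WT1 at 13280 MUC1 at 27792 and MUC16 at 29992.

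Between the groups, MSLN rose and no other marker passed the adjusted threshold in either direction. That is 1 of 6 tested markers, where 2.91% of all tested genes passed (1.73% higher and 1.18% lower in shPQBP1). In these bulk samples, a change in how many cells hold a transcript and a change in its amount per cell cannot be told apart. At an unadjusted p under 0.05, 2 of the 6 passed (MSLN and PAX8), against 23.6% of all genes. None passed the combined threshold named in the study's methods, more than 2-fold at an unadjusted p under 0.05, which 1.52% of all tested genes passed. Of the 6, 5 had a log2 fold change above 0, as 52.8% of all tested genes had. The median of the 6 was 0.27, beside 0.02 over all genes tested. MSLN, PAX8 and KRT19 were higher in every shPQBP1 sample than in every shNC sample, as 17.3% of all tested genes were. With 3 samples against 3, the exact permutation test of a single gene cannot go below p = 0.1, which was its value for each of these 3 genes and for WT1.

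PAX8, the paired-box factor of the Müllerian duct, was well expressed. Its FPKM in shNC was 15.7, 14.89 and 12.33, and in shPQBP1 it was 18.41, 24.08 and 19.79. The lowest shPQBP1 sample lay above the highest shNC sample. The means were 14.3 ± 1.76 and 20.8 ± 2.96 (SD, n = 3 each), a ratio of 1.45. The log2 fold change was 0.53 (95% CI 0.19 to 0.87) with a limma adjusted p of 0.102, so the difference did not pass the adjusted threshold. Without any 1 of the 6 samples it was 0.42 to 0.61, with a limma adjusted p of 0.0924 to 0.247.

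PAX8 lies on the minus strand at chr2:113215997-113278921 (hg38, GENCODE release 44), and PAX8-AS1 covers 60585 bases of it on the opposite strand. The strand of the libraries is not given in the sources used here, so reads of overlapping genes cannot be told apart. PAX8-AS1 was listed at a mean of 0.57 FPKM, 3.25% of the PAX8 level. Among the other PAX genes, none of the 5 listed reached 1 FPKM, and PAX2, the close relative of PAX8 in kidney and duct, was listed at 0 in all 6 samples.

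WT1, a zinc-finger factor of gonad and kidney, was scarcely detected and lay lower in shPQBP1. Its FPKM in shNC was 0.63, 0.71 and 0.68, and in shPQBP1 it was 0.31, 0.34 and 0.45. The groups did not overlap, as 17.1% of tested genes also lay lower in shPQBP1 without overlap. The means were 0.673 ± 0.0404 and 0.367 ± 0.0737 (SD, n = 3 each), and the difference of mean log2(FPKM + 0.1) was -0.74. WT1 lay under the level for testing. In a fit of all genes above 0 in at least 1 sample, of which 0.619% passed, its limma adjusted p was 0.212. WT1 is on the minus strand at chr11:32387775-32435564 and shares 47 bases with WT1-AS, which was listed at a mean of 0.2167 FPKM.

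EMX2, a homeobox factor of the urogenital ridge (chr10:117542445-117549546, plus strand), was listed at 0 in all 6 samples. Its antisense neighbour EMX2OS had a mean of 0.0133 FPKM. Other genes of Müllerian duct patterning were also scarce. Of 11 such genes 10 were listed, 6 of them with a mean under 0.1 FPKM, and only HOXA10 and WNT5A were tested. HOXA10, a homeobox gene of the uterine segment, was at 3.32, 4.16 and 3.84 FPKM in shNC and 3.47, 3.57 and 4.35 in shPQBP1 (log2 fold change 0.0075, 95% CI -0.32 to 0.33, limma adjusted p = 0.975). WNT5A, a secreted signalling protein, was at 2.49 ± 0.0964 and 2.87 ± 0.268 FPKM (log2 fold change 0.19, limma adjusted p = 0.309).

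The surface markers of the set differed widely from each other. MUC1 was listed at 0.01, 0.01 and 0 FPKM in both groups. MUC16 was listed at 0 in all samples except shPQBP1 3, at 0.01. The values are rounded to 2 decimals, so 0.01 is the smallest that can be listed, and no fold is given for either gene. MUC1 lies at chr1:155185824-155192916 and MUC16 at chr19:8848844-9010390, both on the minus strand. The canonical MUC16 transcript has 84 exons and 43816 bases. The other mucins were scarce too, though some lay above MUC1 and MUC16, with MUC20 the highest at a mean of 0.088 FPKM. All 11 other listed MUC genes had a mean under 0.1 FPKM and 4 were at 0 in all samples.

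MSLN was well expressed where MUC16, its binding partner on the cell surface, was at or near 0, and it had the largest log2 fold change of the 6 tested markers. In shNC its FPKM was 14.43, 13.98 and 11.96, and in shPQBP1 it was 23.08, 25.56 and 22.81. All 3 shPQBP1 samples lay above all shNC samples. The means were 13.5 ± 1.32 and 23.8 ± 1.52 (SD, n = 3 each), a ratio of 1.77. The log2 fold change was 0.82 (SE 0.10, 95% CI 0.58 to 1.07, limma adjusted p = 0.0187).

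The direction held without each sample in turn (log2 fold change 0.74 to 0.87), but the call did not. The limma adjusted p of MSLN was 0.0198 without shNC 1 (where 4.07% of all genes passed), 0.0624 without shNC 2, 0.0601 without shNC 3, 0.0880 without shPQBP1 1, 0.0841 without shPQBP1 2 and 0.0935 without shPQBP1 3. Over the whole table these fits called 30 to 466 genes, where all 6 samples gave 332. MSLN is on the plus strand at chr16:760734-768865, and its canonical transcript has 18 exons and a GC content of 65.3%, the highest of the tested markers.

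The genes that build and release mucin sugar chains were measured beside the mucins. Of 20 such genes 19 were listed and 15 tested, and 1 rose while none fell by the adjusted threshold. GALNT12, an enzyme that adds the first sugar to mucin-type chains, rose from 7.20 ± 0.0929 to 15.7 ± 1.06 FPKM (log2 fold change 1.11, SE 0.08, limma adjusted p = 0.00473). It stayed under 0.05 without any 1 sample (0.00841 to 0.0335). GALNT2, an enzyme of the same family, was at 18.2 ± 0.954 and 17.1 ± 0.643 FPKM (limma adjusted p = 0.517). LGALS3, which encodes galectin 3, was at 12.8 ± 1.43 and 13.0 ± 1.87 (limma adjusted p = 0.940). C1GALT1C1, the chaperone of the next enzyme in the chain, was at 13.94 to 17.02 FPKM in 5 samples and at 2.71 in shPQBP1 3 (limma adjusted p = 0.529).

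The keratins of simple epithelia were the most abundant markers, and none of the 4 passed the adjusted threshold. KRT7, the type II keratin of ductal epithelia, had 70.35, 59.61 and 65.33 FPKM in shNC and 56.42, 63.18 and 55.04 in shPQBP1. The groups overlapped, with means of 65.1 ± 5.37 and 58.2 ± 4.36 (SD, n = 3 each). The log2 fold change was -0.16 (95% CI -0.39 to 0.07, limma adjusted p = 0.329). KRT8, the other type II keratin, had 65.53, 54.23 and 52.76 FPKM in shNC and 57.19, 65.61 and 60.84 in shPQBP1. These also overlapped, with a log2 fold change of 0.09 (95% CI -0.17 to 0.36, limma adjusted p = 0.600).

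KRT18, the usual partner of KRT8, had 89.84, 76.56 and 77.77 FPKM in shNC and 84.88, 89.32 and 94.56 in shPQBP1. Its highest shNC sample lay above 2 of the 3 shPQBP1 samples. The log2 fold change was 0.14 (95% CI -0.07 to 0.36, limma adjusted p = 0.358). KRT19, the shortest keratin, which lacks the usual tail, was far lower at 1.65, 1.19 and 1.3 FPKM in shNC and 1.72, 1.7 and 2.1 in shPQBP1. The groups did not overlap, but the gap between the nearest samples was small. The log2 fold change was 0.40 (95% CI -0.0085 to 0.80, limma adjusted p = 0.218).

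**Figure D3:**
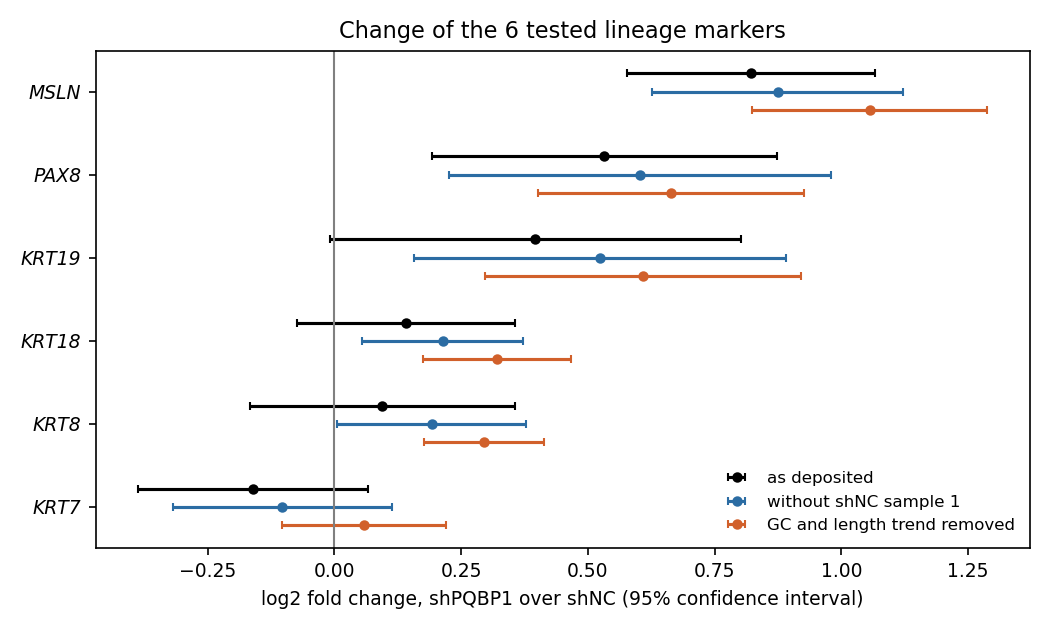
log2 fold change (shPQBP1 over shNC) of the 6 tested markers with 95% confidence intervals from limma, for the values as deposited (black), without the sample shNC 1 (blue) and after each sample's trend with GC content and length was removed (orange). MSLN and PAX8 lie above 0 in all 3 fits, KRT19, KRT18 and KRT8 have intervals that include 0 only for the values as deposited, and KRT7 moves from -0.16 to 0.058 when the trend is removed.

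The tested markers are GC-rich, from 57.0% (PAX8) to 65.3% (MSLN), where the median tested gene has 47.5%. Across tested genes, which are not independent replicates, the log2 fold change went down with GC content (Spearman's rho -0.459). Its median was 0.09 over 8372 genes under 55% GC, -0.12 over 1598 genes at 55 to 60%, -0.15 over 1118 genes at 60 to 65% and -0.20 over 297 genes above that. With the trend on GC content and length removed, 5 of the 6 markers passed the limma adjusted threshold and all 5 were higher, where 8.24% of genes passed (4.96% higher). MSLN then had a log2 fold change of 1.06 (adjusted p = 0.00508) and alone passed the 2-fold threshold of the methods, as 1.19% of genes did. The log2 fold changes and adjusted p of the others were 0.66 and 0.0213 for PAX8, 0.61 and 0.0424 for KRT19, 0.32 and 0.0314 for KRT18, and 0.29 and 0.0224 for KRT8. KRT7 turned from -0.16 to 0.058 (adjusted p = 0.611). Thus MSLN rose by both treatments of the values, and for PAX8, KRT19, KRT18 and KRT8 the call rests on this step.

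Keratins pair across types, so the ratio of type II to type I keratin was taken within each sample. The sum of KRT7 and KRT8 over the sum of KRT18 and KRT19 was 1.49, 1.46 and 1.49 in shNC and 1.31, 1.41 and 1.20 in shPQBP1. All shPQBP1 samples lay lower, with a difference of -0.18 on the log2 scale (two-sided exact permutation p = 0.1, the smallest possible). KRT8 over KRT18 alone was 0.678 to 0.729 in shNC and 0.643 to 0.735 in shPQBP1, which overlap (log2 difference -0.046, exact permutation p = 0.6). KRT7 against each of these partners was looked at after the data were seen. KRT7 over KRT18 was 0.779 to 0.840 in shNC and 0.582 to 0.707 in shPQBP1 (log2 difference -0.30), and KRT7 over KRT8 was 1.07 to 1.24 and 0.905 to 0.987 (log2 difference -0.26). The exact permutation p was 0.1 for both. The whole keratin pool did not separate the groups, since the 4 keratins summed to 191.59 to 227.37 FPKM in shNC and 200.21 to 219.81 in shPQBP1.

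**Figure D4:**
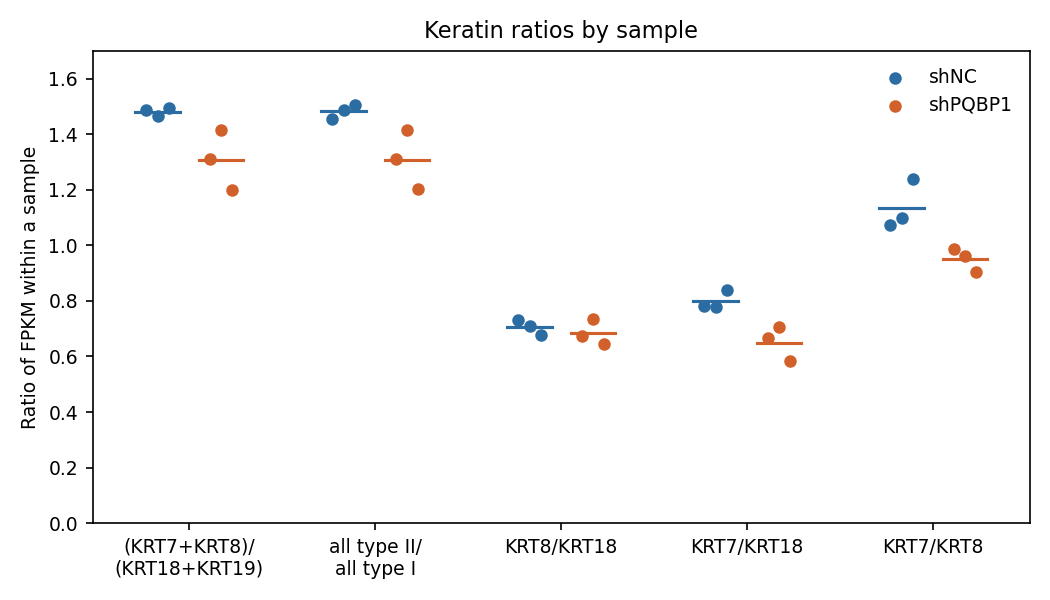
Ratio of FPKM within each sample for 5 pairs of keratin sums or single keratins, in 3 shNC (blue) and 3 shPQBP1 (orange) samples, with geometric means as short lines and an axis that starts at 0. "All type II" and "all type I" sum the keratins with a mean of at least 1 FPKM. The groups separate in each ratio with KRT7 in it and overlap for KRT8 over KRT18.

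KRT7, KRT8 and KRT18 lie on chromosome 12, and KRT19 is on the minus strand of chromosome 17 (chr17:41523617-41528308). KRT8 (chr12:52897187-52949954, minus strand) and KRT18 (chr12:52948871-52952906, plus strand) overlap at their starts and point away from each other. They share 1084 annotated bases. KRT7 (chr12:52232520-52252186, plus strand) holds KRT7-AS on the opposite strand, which was listed at 2.78 to 3.53 FPKM (mean 3.28, 5.32% of KRT7). The annotation of KRT86 also overlaps KRT7 by 2887 bases on the same strand, and the pseudogene KRT87P overlaps it on the opposite strand. What these overlaps add to the KRT7 level was not tested. KRT8 has many processed pseudogenes, copies of its spliced mRNA elsewhere in the genome. The table lists 25 of them, which summed to a mean of 8.40 FPKM, 14.2% of the KRT8 level. KRT8P12 had 3.92 FPKM, KRT8P3 2.16 and KRT8P33 0.883. For KRT18 the 40 listed copies summed to 0.862 FPKM, 1.01% of its level.

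Some of these copies share stretches with KRT8 where reads fit both, to very unequal extents. Of the 1400 windows of 50 bases in the KRT8 coding sequence, 28.2% occur unchanged in KRT8P3, 9.14% in KRT8P33 and 0.286% in KRT8P12. No 50-base window is shared between KRT7 and KRT8 or between KRT18 and KRT19. KRT8P12, the copy with the highest level, thus shares the least of these 3. How the FPKM step divided shared reads is not given in the sources used here. The KRT8 level is therefore uncertain by what copies such as KRT8P3 took.

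The 4 keratins of the set held 91.5% to 93.5% of all KRT FPKM in each sample. Of the 31 other KRT rows listed (the pseudogene KRT87P among them), 22 had a mean under 0.1 FPKM and 3 were tested. KRT80, a type II keratin, was at 6.68 ± 1.12 FPKM in shNC and 4.46 ± 0.189 in shPQBP1, without overlap (log2 fold change -0.56, limma adjusted p = 0.0906). KRT10, a type I keratin of stratified epithelia, was at 5.80 ± 1.22 and 5.19 ± 0.128 (limma adjusted p = 0.608). KRT81, a hair keratin nearly identical to KRT86 and so uncertain, was at 1.92 ± 0.388 and 2.37 ± 0.265 (limma adjusted p = 0.328).

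Vimentin, the intermediate filament of mesenchymal cells, exceeded the keratins. VIM was at 1174 ± 58.1 FPKM in shNC and 1296 ± 40.5 in shPQBP1 (log2 fold change 0.14, limma adjusted p = 0.217). It was higher in every shPQBP1 sample than in every shNC sample, as 17.3% of all tested genes were. VIM was 5.39 to 6.36 times the summed FPKM of the 4 keratins, and this ratio overlapped between shNC and shPQBP1 samples. None of the 7 tested genes among the other intermediate filaments passed the adjusted threshold, the lamins LMNA, LMNB1 and LMNB2 among them.

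Proteins that tie keratin to cell junctions were listed for 14 of 16 genes and tested for 9, of which 1 fell and none rose. EVPL (envoplakin, a linker of keratin to desmosomes) fell from 2.55 ± 0.0702 to 1.33 ± 0.171 FPKM (log2 fold change -0.90, SE 0.13, limma adjusted p = 0.0250). Without 1 sample at a time its limma adjusted p was 0.0425 (without shNC 1) to 0.112 (without shPQBP1 3), and it was above 0.05 without each of the other 5 samples. DSG2, the desmosomal cadherin of simple epithelia, was at 19.01 to 26.73 FPKM in shNC and 30.32 to 34.63 in shPQBP1 (log2 fold change 0.47, limma adjusted p = 0.137), and DSP, the desmosomal plaque protein desmoplakin, at 8.86 ± 2.15 and 11.9 ± 0.515 (0.45, limma adjusted p = 0.213). PLEC, the large linker plectin, was at 37.5 ± 10.8 and 29.5 ± 6.42 (limma adjusted p = 0.478).

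Other markers of Müllerian and serous tumours set the frame for PAX8. Of 17 such genes 16 were listed, 10 with a mean under 0.1 FPKM, and 4 were tested, of which 1 rose. CD24, a small glycoprotein of the cell surface with processed copies elsewhere in the genome, rose from 1.84 ± 0.325 to 4.05 ± 0.0929 FPKM (log2 fold change 1.11, SE 0.14, limma adjusted p = 0.0195). Its limma adjusted p was 0.0165 without shNC 1 and 0.0369 without shNC 2, and 0.0820 to 0.108 without each of the other 4 samples. MECOM, a zinc-finger factor often amplified in serous carcinoma, was at 4.61 ± 1.49 and 7.49 ± 0.431 FPKM (log2 fold change 0.74, limma adjusted p = 0.156). SOX17, a partner factor of PAX8 in tubal epithelium, was at 1.09 ± 0.261 and 1.77 ± 0.108 FPKM (0.68, limma adjusted p = 0.108). BCAM, an adhesion protein, was at 2.14 ± 0.131 and 1.77 ± 0.0503 (log2 fold change -0.26, limma adjusted p = 0.205). The groups did not overlap for any of the 4, with 3 higher and BCAM lower in shPQBP1, beside 17.3% higher and 17.1% lower of all tested genes.

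The label of an ovarian carcinoma line was checked against epithelial markers. EPCAM was at 0.79 to 1.13 FPKM, with overlapping groups. CDH1 (E-cadherin) was at most 0.06 FPKM, and the tight junction claudins CLDN4 and CLDN3 at most 0.09 and 0.18. FOLR1 (folate receptor alpha) reached 0.09 and WFDC2 (HE4) 0.08, and ESR1 (estrogen receptor alpha) 0.03. FOLR1, WFDC2 and ESR1 were named after their values were seen, and other genes of the same and related lists, such as CD24, MECOM, KLF5, DSG2 and DSP, were expressed.

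MSLN also marks mesothelium, so mesothelial genes were taken beside it. Of 10 genes 9 were listed and 3 tested, and none passed the adjusted threshold. BNC1 (basonuclin) was at 13.67, 16.35 and 16.18 FPKM in shNC and 20.57, 19.67 and 20.32 in shPQBP1, without overlap (log2 fold change 0.39, limma adjusted p = 0.0823). GATA6, a factor of mesoderm and endoderm, was at 3.86 ± 0.608 and 2.37 ± 0.763, lower without overlap (log2 fold change -0.72, limma adjusted p = 0.168). Of all tested genes, 17.3% were higher and 17.1% lower in shPQBP1 without overlap. PDPN (podoplanin) ranged from 3.92 to 21.83 FPKM with no order by group (limma adjusted p = 0.591). CALB2 (calretinin) was at 0.13 to 0.48 in shNC and 0.09 to 0.16 in shPQBP1.

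Markers of other tumour types and cell types were mostly absent. Of 18 genes of other ovarian histotypes 12 were listed, 8 of them with a mean under 0.1 FPKM. Only 1 was tested, and it did not pass the adjusted threshold. It was higher in shPQBP1 without overlap, as 17.3% of all tested genes were. Of 12 epithelial transcription and splicing regulators, KLF5 and KLF4 were tested and neither passed (limma adjusted p = 0.795 and 0.266). Both were expressed, with KLF5 at 17.1 ± 3.35 FPKM in shNC and 17.7 ± 0.709 in shPQBP1. KLF4 was at 16.3 ± 1.63 and 10.6 ± 4.56 FPKM, lower without overlap, as 17.1% of all tested genes were. GRHL2 and ESRP1 were at most 0.05 and 0.45 FPKM. Of 18 fibroblast, endothelial and immune genes 16 were listed, which summed to 13.3 to 19.7 FPKM in shNC and 16.48 to 26.33 in shPQBP1. CD68, a lysosomal protein, made up most of that sum at 9.12 to 21.16 FPKM, while the immune marker PTPRC was listed at 0 in all samples. Of the fibroblast markers, PDGFRA was at 0.02 to 0.05 FPKM, COL3A1 at 0 to 0.44 and COL1A1 at 0.19 to 0.47. COL1A1 lay under the level for testing and was lower in shPQBP1 without overlap, as 17.1% of tested genes were. The endothelial gene CDH5 was at 2.52 ± 0.426 and 3.43 ± 0.289 FPKM (log2 fold change 0.44, limma adjusted p = 0.151). In all, 162 of 179 related genes were listed and 48 tested, of which 2 rose and 1 fell, 6.25% beside 2.91% of all tested genes.

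**Figure D5:**
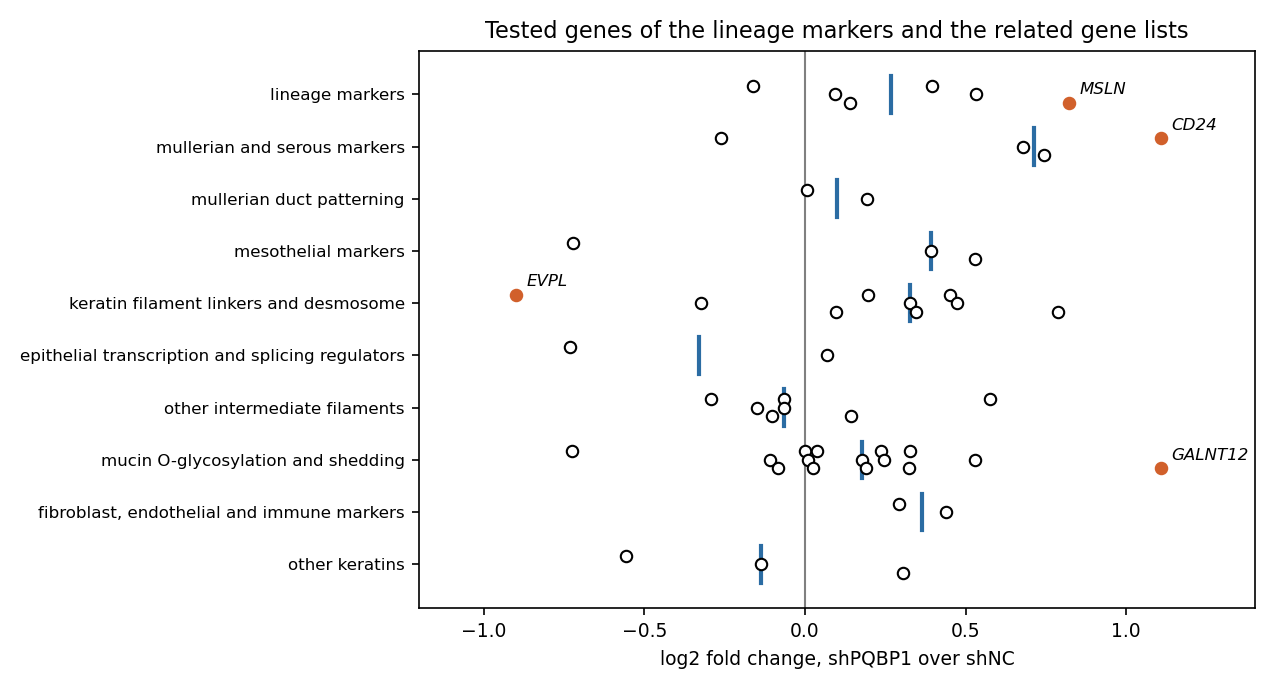
log2 fold change (shPQBP1 over shNC) of each tested marker and each tested gene of the related lists shown, 1 line per list, with blue bars at the list medians. Filled orange points have a limma adjusted p under 0.05. MSLN, CD24 and GALNT12 are to the right and EVPL to the left, and the other mucins and other PAX genes have no tested gene and no line. The list of other histotypes is not drawn.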

How the data were processed

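Poly(A) RNA of 6 HEY cultures (3 shNC, 3 shPQBP1) was sequenced in pairs. The authors used HISAT2 2.2.0 against hg38 for mapping, samtools 1.9 for sorting, StringTie 1.3.0 to build transcripts and edgeR to compare groups. The deposited values are FPKM per gene and sample, scaled by the authors and rounded to 2 decimals. The annotation release is not given in the sources used here. No read counts were used, so depth and counting error are unknown. The deposited fold changes, p-values, q-values and significance marks of the authors' own comparison were not used.

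FPKM columns were matched to samples by title. Genes with a mean of at least 1 FPKM were tested on log2(FPKM + 0.1) with limma 3.58.1 in R 4.3.3 (a two-sided moderated test, with the variance trended on mean level and Benjamini-Hochberg adjustment), and a fold change is on that scale. Levels at or near 0 got no fold. Exact permutation tests used scipy 1.17.1 in Python 3.11.15. GC content, length, positions and coding sequences came from GENCODE release 44 on hg38, possibly not the release behind the deposited values. The trend on GC content and log length was removed from each sample with natural splines (5 degrees of freedom each) for 11385 genes. The fit was tested on simulated data with independent values, no GC trend and changes larger than those of the markers. That test does not show how well changes of the markers' size are called.

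The markers and the 12 related lists were chosen with earlier results of these data known. Named were all 10 markers, PQBP1, their pseudogene and antisense neighbours, and from each list the genes at an adjusted p under 0.05 plus up to 4 of the highest mean level. Further names are list members near 0, chosen after their values were seen. Alternatives were other scalings, filters and pseudocounts, no variance trend, a replicate block, each sample left out and the removal of the GC and length trend. A few items are not reported here.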

Additional observations from a re-analysis of the deposited data

How the results depend on the processing

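Against 1 marker and 3 related genes called, removal of the GC and length trend gave 5 markers and 6 related genes, with 938 calls among all genes where the values as deposited gave 332, and 1 marker (MSLN) past a fold change of 2. It also turned KRT7 to 0.058. A filter at a mean of 10 FPKM left 1 related gene called, since fewer were tested, and keeping all genes above 0 gave 190 calls in all. Without 1 sample at a time, 0 to 1 markers, 1 to 5 related genes and 30 to 466 genes in all were called. The log2 keratin ratio difference was then -0.24 to -0.12. WT1 moved to -0.29 with a pseudocount of 1 and was -0.88 to -0.65 otherwise. The directions of MSLN and PAX8 held in all 15 alternatives, with MSLN at an adjusted p of 0.00508 to 0.148 and PAX8 at 0.0213 to 0.261 by limma.

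The replicate numbers share no stated batch, and same-numbered samples deviated from their group means with correlations of -0.186, -0.138 and -0.0114, so no pairing was used. With the number as a block, 0 markers, 0 related genes and 0 genes in all were called by limma. MSLN had an adjusted p of 0.148 and PQBP1 of 0.0686 at an unchanged log2 fold change of -2.04. The keratin ratio difference then stayed -0.18 (exact permutation p = 0.25 within pairs, the smallest possible with 3 pairs). The unknown depth limits WT1, MUC1, MUC16 and EMX2 most.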

Other observations

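Keratins outside the set and under the level for testing included a pair with opposite patterns, chosen after their values were seen. KRT12, a type I keratin known from the cornea, was at 0.62, 0.46 and 0.56 FPKM in shNC and listed at 0 in all 3 shPQBP1 samples. KRT27, a type I keratin known from the hair follicle, was listed at 0 in all shNC samples and at 0.39, 0.72 and 0.66 in shPQBP1. No fold is given against a group listed at 0. KRT15, a type I keratin of basal epithelia, was at 0.69, 0.67 and 0.46 in shNC and 0.37, 0.44 and 0.42 in shPQBP1, without overlap (exact permutation p = 0.1, the smallest possible).

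PECAM1, an endothelial adhesion protein, was at 0.24, 0.23 and 0.25 FPKM in shNC and 0.02, 0.03 and 0.06 in shPQBP1, while CDH5, also an endothelial gene, was higher in all 3 shPQBP1 samples. Among the mucins, MUC13 was at 0.08 to 0.13 FPKM in shNC and 0 to 0.01 in shPQBP1, and MUC4 at 0.02 and at 0.06 to 0.07. EHF, an epithelial ETS factor, was at 0.10 to 0.21 in shNC and 0.40 to 0.46 in shPQBP1. These genes were singled out after their values were seen, and the groups did not overlap for any of them. Of all tested genes, 17.3% were higher and 17.1% lower in shPQBP1 without overlap. MUC20 and MUC6 overlapped between the groups. Apart from CDH5, the genes of this paragraph lay under the level for testing.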
